A study of Mus musculus with 24 samples.

Results

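The transcripts of 9 genes of mitochondrial quality control were followed in brite adipocytes after knockdown of the long noncoding RNA Ctcflos: Pink1, Mfn1, Mfn2, Opa1, Dnm1l, Fis1, Mff, Bnip3 and Bnip3l. They were chosen by name for their part in mitochondrial fusion, division and removal. The deposited table holds 88 transcript entries under these 9 symbols, among 168326 entries of 52089 symbols. For each symbol the RefSeq messenger RNA entry with the highest mean was used, so that 9 entries stand for the 9 genes.

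The cells were primary preadipocytes from the stromal vascular fraction of inguinal white fat, taken from 129SvEv mice, which the study's methods give as males of 5 to 6 weeks. They were induced for 2 days and differentiated with rosiglitazone, an agonist of PPARgamma that promotes browning of white fat cells, called brite once they express genes of heat production. After 1 day of differentiation they received 50 nM of an LNA (locked nucleic acid) gapmer, either targeting Ctcflos (KD) or nontargeting (NC), by reverse transfection, and RNA was taken 24 h or 72 h later. Every group therefore carried the same inducers, rosiglitazone and a gapmer, and each combination of gapmer and time had 6 libraries. Gapmers are antisense oligonucleotides that direct RNase H to an RNA, and the labels do not say which of the study's gapmers was used in these libraries. The study calls its replicates biological. Neither it nor the labels say whether they came from separate animals or separate cultures, so p-values measure the spread between these samples.

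Mitochondria fuse and divide continuously. Mfn1 and Mfn2 are GTPases that join outer membranes and Opa1 is the GTPase that joins inner membranes, whereas Dnm1l is the dynamin-related GTPase that constricts the organelle and Fis1 and Mff are outer membrane proteins that act with it. Damaged or surplus mitochondria are removed by mitophagy. In its ubiquitin arm the kinase Pink1 accumulates on depolarised mitochondria and phosphorylates ubiquitin, with which outer membrane proteins are marked. In its receptor arm Bnip3 and Bnip3l, a pair of related outer membrane proteins induced by low oxygen, bind the autophagosome directly. In beige and brite fat, mitophagy is known for clearing mitochondria when the cells return to a white state.

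Libraries held 1391832 to 5926375 mapped reads with a median of 4009998, as recovered from the steps of the deposited RPKM (reads per kilobase of transcript, scaled to the mapped reads of a library). The reads of NC 72 h replicates 2 and 3 differed by less than the sampling noise. They entered as 1 sample, so that NC 72 h had n = 5 among 23 samples. The RefSeq entry of Ctcflos itself was low, at 0.741 ± 0.515 RPKM in NC 24 h and 0.189 ± 0.244 in KD 24 h (SD, n = 6 each), where it did not pass the filter on low values. At 72 h it was at 1.23 ± 0.408 in NC (n = 5) and 0.231 ± 0.22 in KD (n = 6), a log2 difference of -2.49 (adjusted p = 0.00226, limma over all entries). The adipocyte markers Adipoq, Plin1, Fabp4, Cidec and Lipe were present in every group, with a summed level of 27333.1 to 53289.6 RPKM over all libraries. They were lower in part in KD: Adipoq (-0.55, adjusted p = 0.0203) and Lipe (-0.41, adjusted p = 0.0422) at 24 h, and Adipoq (-0.96, adjusted p = 0.000657) and Fabp4 (-0.58, adjusted p = 0.00576) at 72 h, of which Lipe (adjusted p = 0.103) and Fabp4 (adjusted p = 0.127) lost their calls without scaling. The median of the summed level at 72 h was 28690.9 RPKM in KD and 39917.6 in NC. Of the preadipocyte markers, 1 of 4 tested at 72 h was called, Cd34, higher by 2.02 (adjusted p = 0.00149). The part of these markers in the results below was not tested. Endothelial markers summed to at most 1.79 RPKM and macrophage markers to at most 30.2 RPKM. Of 3 macrophage markers tested, Csf1r was called higher in KD at 24 h (1.22, adjusted p = 0.00607, limma) and 72 h (1.24, adjusted p = 0.00312). Lyz2 was called lower at 72 h (-3.68, adjusted p = 0.000657). Their part in the results below was not tested either. The summed level of the brite markers Ucp1, Cidea, Cox7a1, Ppargc1a and Elovl3 ran from 424.8 to 847.2 RPKM in KD 72 h and from 1212.2 to 1978.2 RPKM in NC 72 h. In these bulk samples fewer brite cells and less RNA per cell cannot be told apart.

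In the controls the 9 genes spanned a wide range of levels per transcript length. In NC 24 h the order of mean deposited RPKM was Bnip3 at 658.6, Fis1 at 221.3, Bnip3l at 36.0, Mff at 27.6, Dnm1l at 9.39, Mfn2 at 7.93, Pink1 at 7.72, Opa1 at 4.12 and Mfn1 at 1.72. The ranges of Bnip3 and Fis1 did not overlap each other or any other member, while those of Mff and Bnip3l overlapped, as did those of Dnm1l, Mfn2 and Pink1. The same 4 genes led the order in every group. Opa1 and Mfn1 were the lowest in every group, and Dnm1l, Pink1 and Mfn2 changed places between groups. This order is per length. In whole reads, Opa1 had 624 in NC 24 h and Pink1 469.

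**Figure D1:**
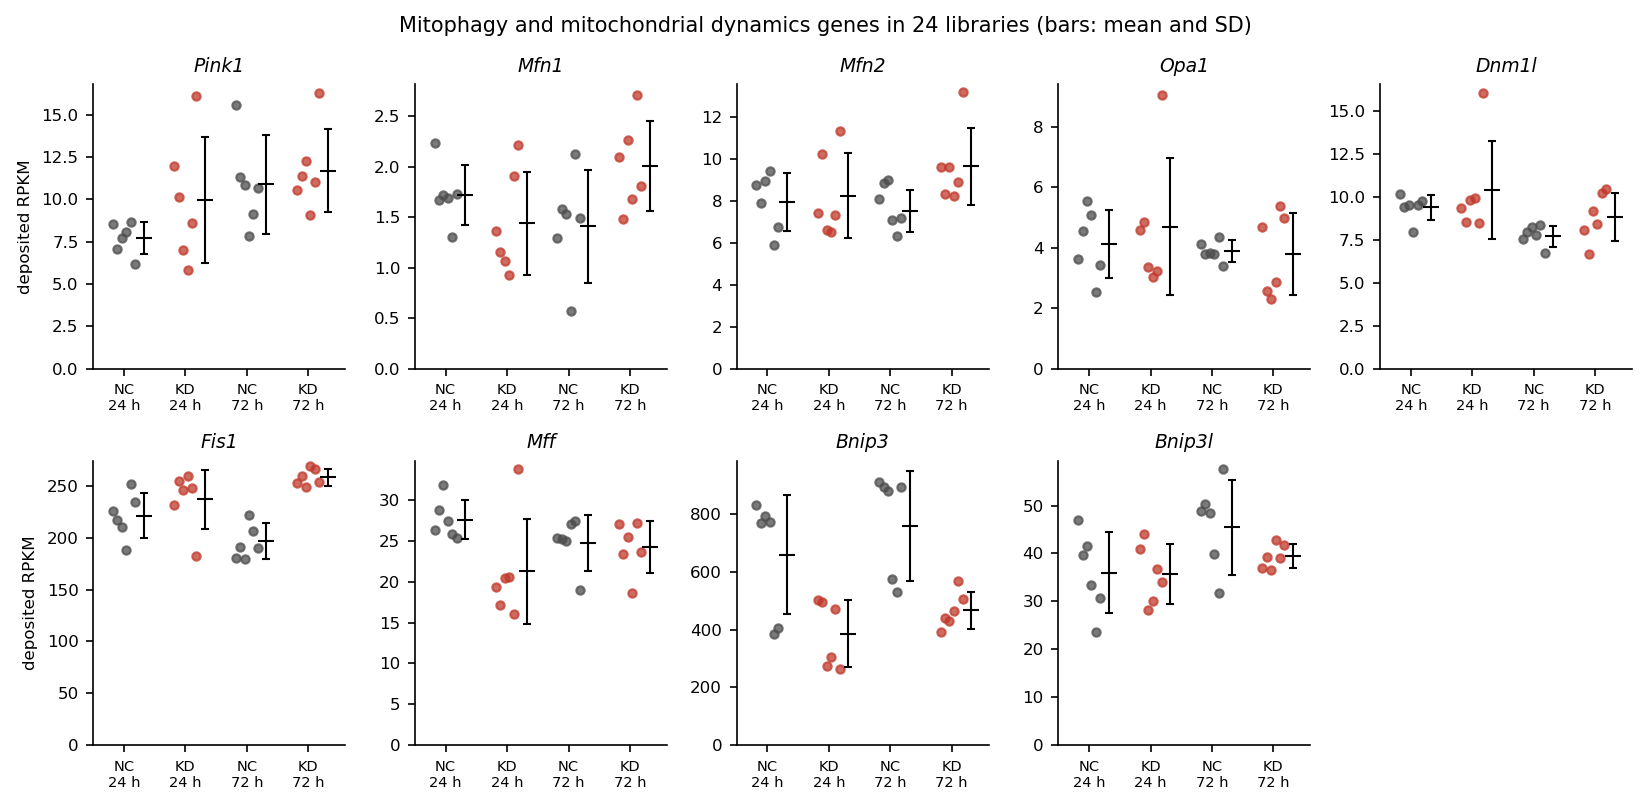
Deposited RPKM (vertical axes, each from 0) of the 9 genes in the 24 libraries by group, with the NC libraries in grey and the KD libraries in red, and mean ± SD beside them (NC 72 h replicates 2 and 3 counted once in the mean). Bnip3 was lower in KD, with means of 385.3 and 466.7 RPKM against 658.6 and 759.2 in NC. Its points overlap at both times on this deposited scale.

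The 9 genes span 12.9 to 75.6 kb in the annotation (GENCODE M21, GRCm38). Opa1 is the longest, and the other 8 lie under 50 kb. Of the tested genes with a span, 9754 of 11111 at 24 h and 10236 of 11576 at 72 h, those under 50 kb were called lower in KD in 7.75% at 24 h and 10.4% at 72 h. For spans of 50 to 200 kb the shares were 19.3% and 14.8%, for 200 to 500 kb 53.9% and 38.9%, and over 500 kb 64.8% and 54.4%. The same shares for NC 72 h against NC 24 h were 4.82%, 3.09%, 1.53% and 6.67%. The part of gene length in the differences given here, of the members and of other genes, was not tested.

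Most of the 9 genes differed little at 24 h. Their fitted log2 differences ran from -0.81 to 0.23 with a median of -0.02, beside -0.01 over all entries, and the median size of the difference was 0.06 beside 0.37. Of the 9, Bnip3 and Mff were called lower (adjusted p under 0.05, limma over 52004 entries) and 0 higher, where 11.6% of all entries tested were called lower, 11.1% higher and 22.7% either way. At 72 h the differences ran from -0.92 to 0.33 with a median of -0.12, beside 0.01 over all entries, and the median size was 0.28 beside 0.33. Again 2 of the 9, Bnip3 and Bnip3l, were called lower and 0 higher, where 12% of the 54446 entries tested were called lower, 10.3% higher and 22.3% either way. The members called, 2 of 9, are near the share of all entries called either way at both times. For 0 of the 9 did the groups lie apart at 24 h, where 11.1% of all entries did. At 72 h those of 1 gene, Bnip3, lay apart on the scaled values, beside 13.8% of all entries.

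**Figure D2:**
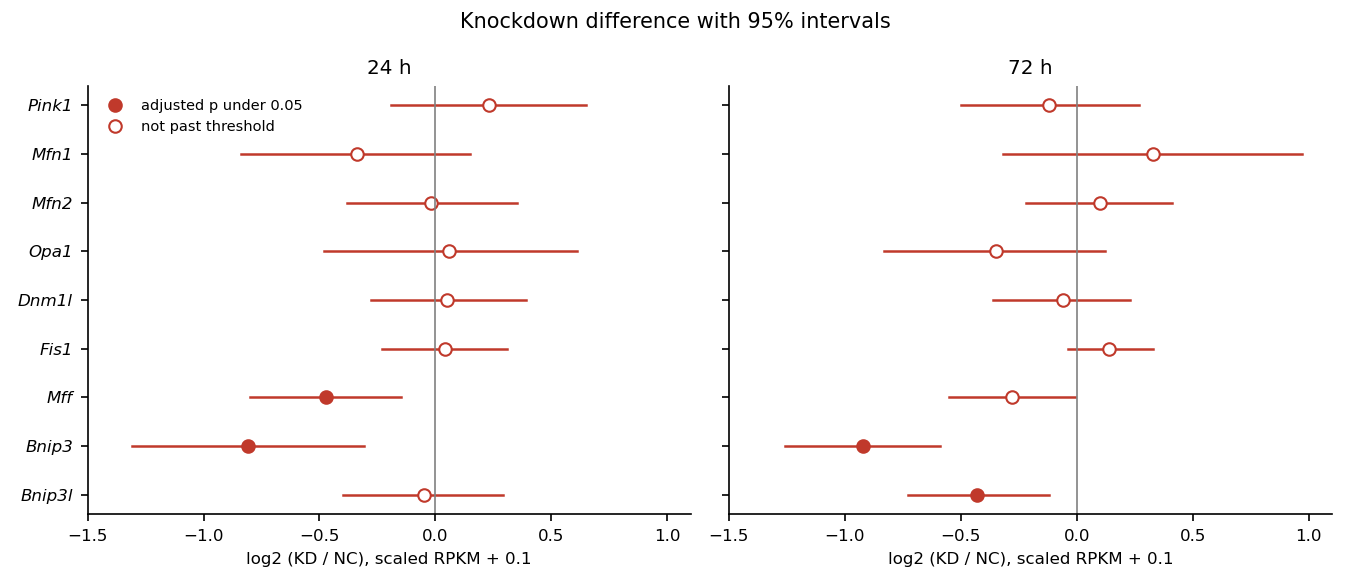
Fitted log2 difference of KD from NC (horizontal axis, scaled RPKM + 0.1) with 95% intervals for the 9 genes at 24 h (left) and 72 h (right). Filled red points passed an adjusted p of 0.05, and open points did not. Bnip3 lies at -0.81 and -0.92, Mff is filled at 24 h and Bnip3l at 72 h.

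Bnip3 was the most abundant member and the one called lower at both times. In NC 24 h it was at 384.2 RPKM in the lowest, 770.6 in the median and 830.2 in the highest library, and in KD 24 h at 264.3, 388.0 and 503.2. In all, 3 of 6 KD libraries lay below the lowest NC library and all 6 below the NC median. The log2 difference was -0.81 ± 0.23 (95% interval -1.31 to -0.31, adjusted p = 0.0225), or 43.1% lower. At 72 h the NC samples ran from 529.3 through 887.7 to 912.1 RPKM and the KD libraries from 390.9 through 452.4 to 568.9. The difference was -0.92 ± 0.16 (interval -1.26 to -0.59, adjusted p = 0.000962), or 47.3% lower. All 4 entries of Bnip3, which overlap and share reads, were called lower at both times, with log2 differences between -0.94 and -0.74. At 24 h the call was lost without replicate 1, 2, 3 or 4 (differences of -0.85 to -0.68, adjusted p of 0.0515 to 0.0814) and held without replicate 5 (-1.02, adjusted p = 0.016) or 6 (-0.82, adjusted p = 0.0116). At 72 h it held without each replicate in turn, with adjusted p from 0.00045 to 0.00975.

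The 250 bases before the start site of Bnip3 are shown because low oxygen factors are known to bind the core letters ACGTG or GCGTG. These were searched on both strands and are in capitals. The window holds 5 matches, of which 2 overlap in the palindrome CACGTG. At least 1 match was found in 38.6% of 32851 promoter windows of this length, and at least 5 in 1.0%. The window of Mff, the other member called lower at 24 h, holds 0 matches and is shown beside it, and that of Bnip3l was not analysed here. Among the members called at neither time, Pink1 holds 1 match, Mfn2 1 or 2 by start site and Dnm1l 0 or 1. Mfn1, Opa1 and Fis1 hold 0. The part of these matches in the differences was not tested. Sequences are from RefSeq on GRCm38.p6, Bnip3 at chr7:138909507-138909756 on the minus strand and Mff at chr1:82724640-82724889 on the plus strand, 5′ to 3′ along each gene.
Bnip3: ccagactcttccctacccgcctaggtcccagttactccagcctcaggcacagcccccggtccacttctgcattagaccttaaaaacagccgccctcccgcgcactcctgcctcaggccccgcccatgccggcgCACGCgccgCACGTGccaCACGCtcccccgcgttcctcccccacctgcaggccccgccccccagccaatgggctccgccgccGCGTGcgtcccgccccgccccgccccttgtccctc
Mff: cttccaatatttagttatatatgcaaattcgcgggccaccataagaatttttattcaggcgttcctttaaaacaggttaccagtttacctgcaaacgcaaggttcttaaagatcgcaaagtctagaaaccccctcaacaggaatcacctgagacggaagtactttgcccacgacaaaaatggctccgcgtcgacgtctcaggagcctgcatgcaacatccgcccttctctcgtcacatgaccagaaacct

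Part of the genes known to respond to low oxygen were lower in KD at 72 h. Of 14 listed and tested, 6 were called lower and 0 higher, namely Ldha, Vegfa, Aldoa, Ankrd37, Pdk1 and P4ha1, and 8 were not called. This is 42.9% beside 12% of all entries called lower, and the list median was -0.41. The 3 with the smallest adjusted p were Ldha, lactate dehydrogenase A, at -0.65 ± 0.13 (adjusted p = 0.00256), Vegfa, an angiogenic growth factor, at -0.71 ± 0.18 (adjusted p = 0.0115), and Aldoa, a glycolytic aldolase, at -0.36 ± 0.1 (adjusted p = 0.0165). Without scaling Ldha kept its call (-0.4, adjusted p = 0.034), and Vegfa (-0.46, adjusted p = 0.0818) and Aldoa (-0.11, adjusted p = 0.444) did not. At 24 h only Ldha was called among the 14, at -0.58 ± 0.18 (adjusted p = 0.0304). This is 7.14% beside 11.6% of all entries called lower, and the list median was -0.26. Without scaling Ldha lost that call (adjusted p = 0.0528). The difference between the times was called for 0 of the 14 (limma), with 0 at an unadjusted p under 0.05.

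The libraries split on these genes. By their deviations from the group means over 6241 genes, the 24 libraries formed 2 clusters: 16 libraries made up the larger and 8 the smaller, to which each group gave 2. In NC 24 h, Bnip3 was at 770.2 to 830.2 RPKM in the 4 libraries of the larger cluster and at 384.2 and 404.0 in the 2 of the smaller. In NC 72 h it was at 887.7 to 912.1 in 3 samples and at 529.3 and 573.9 in the other 2. In KD 24 h the ranges overlapped, at 264.3 to 503.2 in the larger cluster and 273.3 and 304.6 in the smaller. Among the low oxygen genes the smaller cluster lay below every library of the larger for 13 of the 14 in NC 24 h, 14 of 14 in NC 72 h and 12 of 14 in KD 24 h. In KD 72 h the order was the other way for Bnip3, at 390.9 to 465.0 in the larger cluster and 506.8 and 568.9 in the smaller, and the smaller cluster lay below for 2 of the 14 genes and above for 6. In the larger cluster at 72 h, all low oxygen genes called lower had lower deposited means in KD. Ldha was at 2012.1 RPKM against 3228.3 in NC. In the smaller cluster this held for Pdk1 alone (8.18 against 8.84). Ldha (2310.8 against 2214.7), Vegfa (26.6 against 22.5), Aldoa, Ankrd37 and P4ha1 had higher deposited means in KD there. The clusters were drawn from the same data, so these are descriptions. Within the larger cluster the Bnip3 difference was -1.02 at 24 h and -1.27 at 72 h. Within the smaller, with 2 libraries a group, it was -0.43 and -0.37. The split was drawn from the spread within groups, so no p-value is given for these differences. Each group has both clusters in like shares, and what the clusters stand for is not given in the labels.

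Bnip3l, the relative of Bnip3, was not called at 24 h and was called lower at 72 h. The difference between the times was not past its own test (-0.36 ± 0.22, adjusted p = 0.542, limma). In NC 24 h it ran from 23.7 through 36.5 to 47.0 RPKM and in KD 24 h from 28.1 through 35.4 to 44.0, so that the KD range lay inside the NC range (log2 difference -0.05 ± 0.16, interval -0.4 to 0.29, adjusted p = 0.838). At 72 h NC ran from 31.8 through 48.8 to 57.6 and KD from 36.6 through 39.1 to 42.9. The difference was -0.43 ± 0.14 (interval -0.73 to -0.12, adjusted p = 0.0441). It passed the test in 4 of the 8 Bnip3l entries tested. The call was close to the threshold and was lost without NC 72 h replicate 6 (-0.34, adjusted p = 0.11), without replicate 1, 2, 3 or 6, with the replicate number as a block (-0.42, adjusted p = 0.102) and on the deposited scale.

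**Figure D3:**
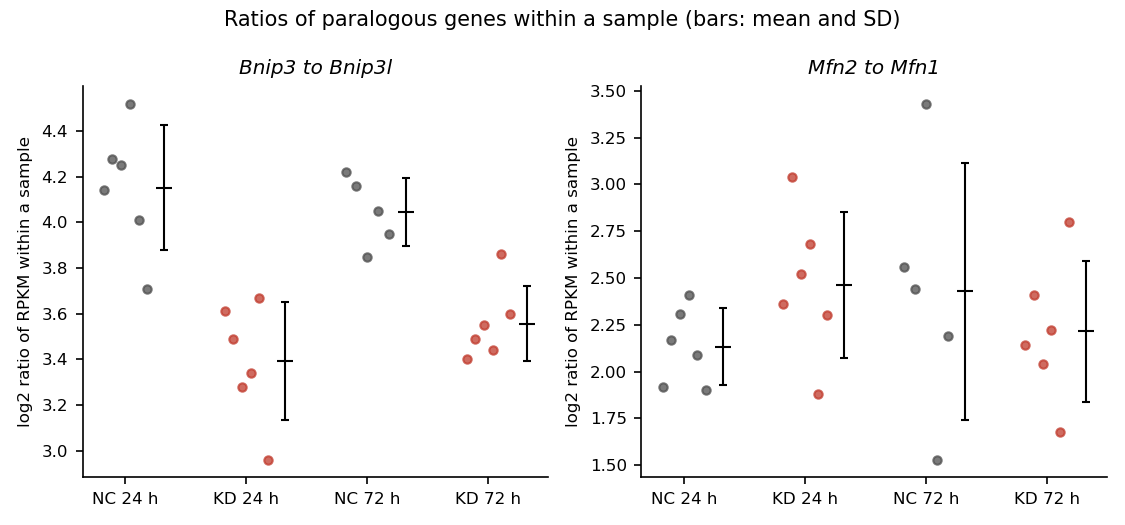
Log2 ratio of RPKM within each sample (vertical axes, not from 0) of Bnip3 to Bnip3l (left) and of Mfn2 to Mfn1 (right), by group, with mean ± SD; n = 6, 6, 5 and 6 from left to right. The Bnip3 ratio averages 4.15 and 4.05 in NC and 3.39 and 3.55 in KD.

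A ratio of 2 genes within a library does not depend on scaling between libraries. The log2 ratio of Bnip3 to Bnip3l was 4.15 ± 0.28 in NC 24 h and 3.39 ± 0.26 in KD 24 h (SD, n = 6 each), a difference of -0.76 with the highest KD library at 3.67 and the lowest NC library at 3.71. The exact permutation p (two-sided) was 0.00216, the smallest that 6 against 6 can give, and 0.013 after adjustment over the 6 ratio comparisons. At 72 h the ratio was 4.05 ± 0.15 in NC (n = 5) and 3.55 ± 0.17 in KD (n = 6), a difference of -0.49 (exact permutation p = 0.00866, adjusted 0.026), with 1 KD library, at 3.86, above the lowest NC sample at 3.85. So Bnip3 fell relative to Bnip3l at both times. The call at 72 h was lost without replicate 1 or 6 (adjusted p = 0.0951 each) and without NC 72 h replicate 6 alone (0.057). Permuted within replicate number, the adjusted p were 0.187 and 0.188, where the smallest p such a test can give is 0.0312 with 6 pairs and 0.0625 with 5. The log2 ratio of Mfn2 to Mfn1 differed by 0.33 at 24 h (adjusted p = 0.204, exact permutation) and by -0.22 at 72 h (adjusted p = 0.532).

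Mff, the adaptor that recruits Dnm1l to the outer membrane, was lower at 24 h. NC libraries ran from 25.4 through 26.9 to 31.8 RPKM and KD libraries from 16.0 through 19.9 to 33.9. Of the 6 KD libraries, 5 lay below all NC libraries, and the sixth, replicate 6, lay above them all. The difference was -0.47 ± 0.15 (interval -0.8 to -0.15, adjusted p = 0.0356), and without that library, which held the fewest mapped reads, it was -0.6 ± 0.12 (adjusted p = 0.00254). Of the 9 Mff entries tested, which overlap and share reads, 7 were called lower. The call was lost with the replicate number as a block (adjusted p = 0.0676) and without any 1 of replicates 1 to 5 (0.0603 to 0.125), while the difference stayed at -0.47 under the block and between -0.5 and -0.42 without them. At 72 h Mff was at 25.4 in the median NC sample and 24.6 in the median KD library, with a scaled difference of -0.28 ± 0.13 (adjusted p = 0.127). Without NC 72 h replicate 6, whose Mff of 19.0 lay apart from the rest of its group, the difference was -0.38 ± 0.12 (adjusted p = 0.0441).

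The RefSeq entries of the remaining division genes were not called. Fis1, the second most abundant member, was at 187.8 to 251.9 RPKM in NC 24 h and 181.9 to 259.5 in KD 24 h (0.04 ± 0.13, adjusted p = 0.849). At 72 h its deposited values did not overlap, with 180.8 to 222.3 in NC and 249.4 to 269.6 in KD, yet after scaling they did (0.14 ± 0.08, interval -0.04 to 0.33, adjusted p = 0.245). Of the 5 Fis1 entries tested, 1 of 565 bases was called higher at 72 h (0.83 ± 0.2, adjusted p = 0.0102) and 0 at 24 h (limma), and the other 4 stood between 0.1 and 0.14 at 72 h. Dnm1l had medians of 9.54 and 9.61 RPKM in NC and KD at 24 h (0.05 ± 0.16, adjusted p = 0.835) and of 7.79 and 8.8 at 72 h (-0.06 ± 0.14, adjusted p = 0.78). The intervals, -0.28 to 0.39 and -0.36 to 0.23, bound how far Dnm1l may have moved.

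Scaling mattered for these genes at 72 h. On the deposited RPKM the median of all entries was 0.252 higher in KD than in NC on the log2 scale, and 13166 entries were called higher and 3102 lower, against 5613 and 6545 after scaling. On that scale Fis1 was called higher (0.39, adjusted p = 0.00328), Bnip3l was at -0.18 (adjusted p = 0.347), Mff at -0.03 (adjusted p = 0.876), and the signs of Dnm1l and Pink1 changed. Bnip3 was called lower either way (-0.67, adjusted p = 0.00567 on the deposited scale). At 24 h the shift was 0.046, and Mff lost its call there (-0.42, adjusted p = 0.0741).

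The fusion genes were not called at either time. Mfn1, the lowest of the 9 in NC with 10 to 46 reads per library, had a median of 1.71 RPKM in NC and 1.26 in KD at 24 h (-0.34 ± 0.23, interval -0.84 to 0.15, adjusted p = 0.295) and of 1.49 and 1.96 at 72 h (0.33 ± 0.3, interval -0.32 to 0.97, adjusted p = 0.468). Its change of sign between times was not past the test of the difference itself (0.68 ± 0.37, adjusted p = 0.491). Mfn2, which also ties mitochondria to the endoplasmic reticulum, was at 5.9 to 9.4 RPKM in NC 24 h and 6.49 to 11.3 in KD 24 h (-0.02 ± 0.17, interval -0.38 to 0.35, adjusted p = 0.954), and differed by 0.1 ± 0.15 at 72 h (adjusted p = 0.678). Opa1 ran from 2.52 to 5.55 in NC 24 h and from 3.04 to 9.06 in KD 24 h (0.06 ± 0.26, adjusted p = 0.88), and differed by -0.35 ± 0.22 at 72 h (interval -0.83 to 0.12, adjusted p = 0.274). Of the 9 Opa1 entries tested at 72 h, the 3 longest stood at -0.35 and the 6 shorter ones between 0.1 and 0.42, and 0 of the 9 were called (limma, adjusted p from 0.274 to 0.852).

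Pink1, the kinase that starts the ubiquitin arm, was not called at either time. It ran from 6.19 through 7.91 to 8.66 RPKM in NC 24 h and from 5.8 through 9.38 to 16.1 in KD 24 h (0.23 ± 0.2, interval -0.19 to 0.65, adjusted p = 0.406). At 72 h it was at 7.8 to 15.6 in NC and 9.04 to 16.3 in KD (-0.12 ± 0.18, interval -0.5 to 0.27, adjusted p = 0.677).

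Over time in the controls, the chosen entries of 0 of the 9 genes were called in limma (adjusted p under 0.05). Only 1, that of Pink1, had an unadjusted p under 0.05. Of all 52834 entries, 9.12% were called, 4.63% higher and 4.49% lower. Among the other entries, 1 of 5 tested for Fis1 (-0.76, adjusted p = 0.0389, limma) and 1 of 9 for Mff (-0.6, adjusted p = 0.017) were called lower. The 10 Opa1 entries tested ran from -1.08 to -0.01, and 0 of them were called. For 0 of the 9 did the groups lie apart, beside 7.4% of all entries. Pink1 differed by 0.48 ± 0.17 between NC 72 h and NC 24 h (adjusted p = 0.104) and Bnip3l by 0.37 ± 0.18 (adjusted p = 0.241). These comparisons share the control libraries with those of KD. Bnip3 differed by 0.26 ± 0.23 (adjusted p = 0.551, limma). Within the larger cluster Pink1 differed by 0.68 and Bnip3 by 0.23. Within the smaller cluster, with 2 libraries a group, Bnip3 differed by 0.46. The clusters were drawn from the same data, so these differences within them are descriptions. The knockdown difference at 72 h was not past the test against that at 24 h for any of the 9 genes (unadjusted p from 0.0805 to 0.758, adjusted p from 0.491 to 0.934), where 0.2% of 59411 entries were called.

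Other genes of the 2 arms of mitophagy moved in both directions. In the ubiquitin arm, 5 of 22 tested were called higher at 24 h and 1 lower, and at 72 h 2 of 23 were higher and 4 lower. The shares called, 27.3% and 26.1%, are near those of all entries, 22.7% and 22.3%. The difference between the times was called for 0 of the 23 (limma), with 2 at an unadjusted p under 0.05. Sqstm1, the receptor that bridges ubiquitin to the autophagosome, rose from 57.3 ± 5.67 to 129.5 ± 52.4 RPKM at 24 h (1.01 ± 0.2, adjusted p = 0.00379) and by 0.74 ± 0.1 at 72 h (adjusted p = 0.000171). Tax1bp1, another such receptor, rose by 0.44 ± 0.1 (adjusted p = 0.00881) and 0.55 ± 0.09 (adjusted p = 0.000939), and Vcp, the ATPase that extracts ubiquitylated proteins from membranes, rose by 0.54 ± 0.11 at 24 h (adjusted p = 0.00329), as did Pgam5 and Usp30. Vdac2, a channel of the outer membrane, was lower by 0.52 at 24 h (adjusted p = 0.0487) and by 0.3 at 72 h (adjusted p = 0.0222). At 72 h Vdac3 (-0.42 ± 0.09, adjusted p = 0.0053), Rhot1, which tethers mitochondria to their motors (-0.86 ± 0.21, adjusted p = 0.00925), and Ambra1 were lower too. Sqstm1 and Tax1bp1 are known to serve selective autophagy of many cargoes, not of mitochondria alone. Without scaling, the calls of Vdac2, Vdac3 and Rhot1 at 72 h were lost (adjusted p = 0.721, 0.25 and 0.0527). In the receptor arm, 1 of 8 tested was higher and 1 lower at 24 h, and 1 higher and 2 lower at 72 h, or 25.0% and 37.5% called. Mcl1 was higher at 24 h and Bcl2l1 at 72 h, both better known for restraining cell death, while Nipsnap1 was lower at both times (-1.03 ± 0.36 and -2.2 ± 0.53, adjusted p = 0.0483 and 0.00855) and its relative Gbas at 72 h (-1.03 ± 0.25, adjusted p = 0.00881).

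**Figure D4:**
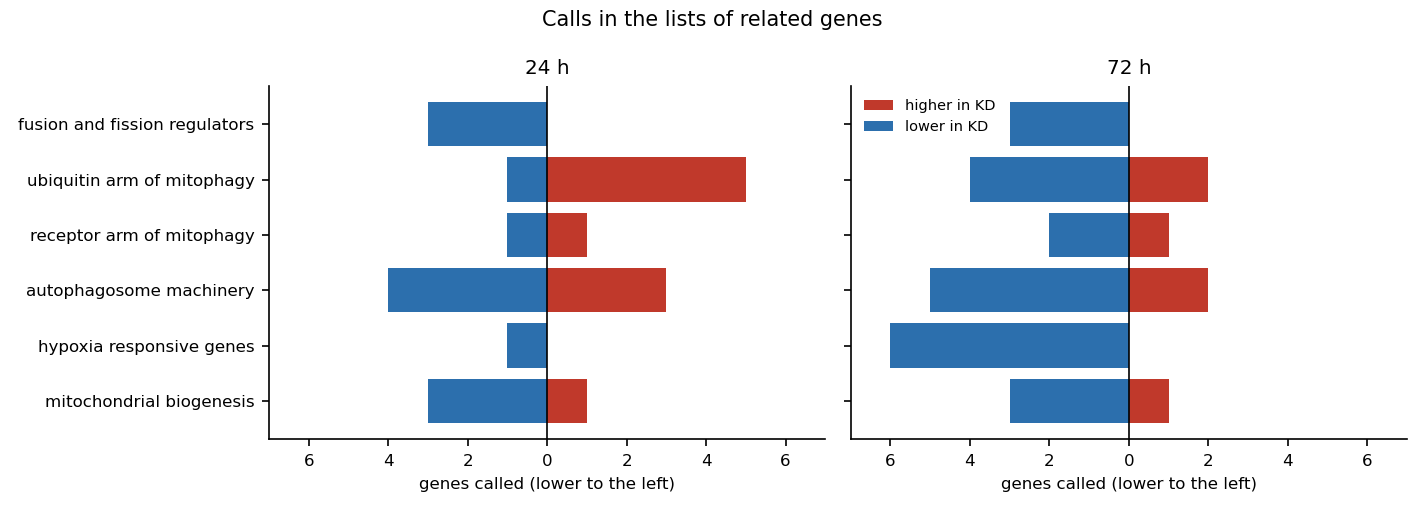
Genes called higher (red, to the right) and lower (blue, to the left) in KD at 24 h and 72 h in the 6 lists of related genes, with the number of genes on the horizontal axis. In the low oxygen list 1 gene was lower at 24 h and 6 at 72 h, and in the ubiquitin arm 5 and 2 were higher. The difference between the times was called for 0 genes of either list.

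The autophagosome machinery was mixed as well, with 3 of 25 higher and 4 lower at 24 h and 2 higher and 5 lower at 72 h, or 28.0% called each time beside 22.7% and 22.3% of all entries. The lower genes included Atg7, the activating enzyme of both conjugation systems (-1.38 ± 0.22 at 24 h and -1.31 ± 0.15 at 72 h, adjusted p = 0.00104 and 5.35e-05), Atg10 (-1.39 ± 0.23 and -1.5 ± 0.18, adjusted p = 0.0013 and 9.32e-05) and Atg5, with Atg13 at 24 h and Wipi1 and Ulk1 at 72 h. Atg12, the ubiquitin-like partner of Atg5, was higher at both times (0.31 ± 0.1 and 0.44 ± 0.13, adjusted p = 0.042 and 0.0279). Among the genes that coat the autophagosome, Map1lc3a was higher at 24 h (0.64 ± 0.1, adjusted p = 0.000647) and Gabarapl2 at 72 h (0.9 ± 0.17, adjusted p = 0.00247). Atg14 was also higher at 24 h. Without scaling Wipi1 lost its call at 72 h (adjusted p = 0.0743).

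Among 17 fusion and fission regulators tested at 24 h and 18 at 72 h, 3 were called lower and 0 higher at each time, and they were the same genes. The shares called, 17.6% and 16.7%, are below those of all entries, 22.7% and 22.3%. Chchd3, a subunit of the cristae organising complex, went from 299.1 ± 15.8 to 130.5 ± 57.7 RPKM at 24 h (-1.37 ± 0.26, adjusted p = 0.00271) and from 245.6 ± 13.4 to 107.3 ± 34.1 at 72 h (-1.5 ± 0.14, adjusted p = 1.5e-05). Yme1l1, a protease that cleaves Opa1, was lower by 0.72 and 0.9 (adjusted p = 0.00802 and 0.0406), and Mtch2, an outer membrane protein, by 0.55 and 0.51 (adjusted p = 0.0259 and 0.00148). Of 16 genes of mitochondrial biogenesis, 1 was higher and 3 lower at each time, beside a background of 22.7% and 22.3% of entries called. Peo1, the mitochondrial DNA helicase, was higher (0.65 ± 0.18 and 0.77 ± 0.19, adjusted p = 0.0212 and 0.0112), Gabpa, a nuclear respiratory factor subunit, was lower at both times, Ppargc1b and Tomm40 at 24 h, and Ppargc1a and Cs, citrate synthase, at 72 h (-1.27 ± 0.23 and -0.63 ± 0.14, adjusted p = 0.00156 and 0.00534). Without scaling, Yme1l1 (adjusted p = 0.0687), Mtch2 (0.0786), Gabpa (0.135) and Cs (0.0951) lost their calls at 72 h, and Tomm40 (0.0742) its call at 24 h. Of the brite markers, 4 of 5 were called lower at 24 h and 5 of 5 at 72 h. Ucp1 was lower by 1.15 and 2.37 on the log2 scale (adjusted p = 0.00486 and 8.23e-06). Another brite marker, Cidea, lost its call at 24 h without scaling (adjusted p = 0.0735). The part of the lower brite programme in the lists above was not tested.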

How the data were processed

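RNA was measured by 3′ end sequencing with sample barcodes (BRB-seq) in 24 libraries. The deposited table holds RPKM per transcript entry, computed by the authors from tags aligned to NCBI reference sequences in the Genomatix suite; the genome build, versions, filters and strand setting are not given in the sources used here. RPKM of a 3′ library divides by a length that was not read, which touches levels between genes but not differences between groups. Entries of a gene overlap and share reads. Whole reads were recovered from the steps of the RPKM, with 93.5% to 94.1% of low values whole per library. Each library's precision follows its depth, and intervals on reads cover counting error only. In NC 72 h replicate 6, 14.8% of read numbers were odd, beside 54.4% to 56.3% elsewhere. NC 72 h replicates 2 and 3 differed by 0.274 times the counting noise (next pair 1.496).

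RPKM were scaled between libraries by a trimmed mean of log ratios (30% and 5% trimmed), 0.1 was added and log2 taken. An entry had to reach the RPKM worth 10 reads at the median depth in a number of samples equal to the smaller group, and 15 reads in total, and limma 3.58.1 (R 4.3.3, trend, pairwise groups) was fitted with Benjamini-Hochberg adjustment over all entries; a call is an adjusted p under 0.05. Because the values are RPKM, count models were not used, and a voom fit on recovered reads was an alternative. Ratios were tested by exact permutation (2-sided), adjusted over 6. Genes outside the members were named as the 3 called genes of each list and direction with the smallest adjusted p, with the other called genes by name only. Of the 10 genes of the set, 1 is not reported here. Groups come from the sample labels. Members, lists and tests were chosen with earlier results of these data known. The fits were tested on simulated data. Replicate numbers did not pair samples (mean correlation of deviations -0.1 at 24 h and 0.04 at 72 h).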

Additional observations from a re-analysis of the deposited data

Results flagged for a closer look

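In each of 36 sets, the 9 genes by 4 groups, the highest or lowest library was compared with the range of its group, and 7 lay apart by Dixon's criterion, where chance gives about 1 in 20. Of the 7, 4 were in KD 24 h replicate 6, which had the fewest mapped reads: Opa1 at 9.06 RPKM (nearest library 4.84), Dnm1l at 16.1 (9.96), Mff at 33.9 (20.6) and Fis1, low at 181.9 (231.6). Without that library the KD differences at 24 h were -0.12 for Opa1, -0.06 for Dnm1l, -0.6 for Mff and 0.14 for Fis1 on the log2 scale. The others were Mfn2 in KD 72 h replicate 6 at 13.2 (9.61), Dnm1l in NC 24 h replicate 4, low at 7.98 (9.4), and Mff in NC 72 h replicate 6, low at 19.0 (25.2).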

How the results depend on the processing

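Of 657 repeats of the members' fits, 583 kept their direction and side of the threshold, 44 changed sign, 24 lost a call and 6 gained one. Of 1026 repeats for other genes, 847 kept both, 178 lost a call and 1 changed sign. The 2 libraries left out singly were chosen after seeing the data. Depth limits Mfn1 most. The causes of the changes below were not tested. Clusters of libraries were drawn from the same data, so calls and p-values within them are descriptions.

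With 1 entry per gene the calls were 2613 at 24 h, 2807 at 72 h, 1072 over time in NC and 45 for the change of the KD effect, fewer because fewer entries were tested. In the smaller cluster they were 1562, 5764, 1745 and 1837. The calls for the change of the KD effect, 119 in the report, were 860 in the larger cluster, 774 without scaling, 244 with 1 RPKM added, 182 with all libraries kept separate and 28 with the replicate number as a block, and the calls over time in NC were 2899 with that block. Leaving out each replicate in turn gave 6235 to 11637 calls at 24 h, 7706 to 10573 at 72 h and 5 to 126 for the change of the KD effect.

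Called members at 24 h, 2 in the report, were 1 without scaling, 1 without the filter, 1 with the replicate block, 1 in each cluster and 0 to 2 with a replicate left out. At 72 h they were 1 without the filter, 1 with the block, 0 in the smaller cluster and 1 to 2 with a replicate left out. Over time in NC they were 2 in the larger cluster and 1 in the smaller. The Bnip3 to Bnip3l ratio lost its call in the clusters (-0.86 and -0.56 at 24 h, -0.65 and -0.22 at 72 h) and under the replicate block (-0.76 and -0.49). The smallest p possible before adjustment over 6 was 0.0286 in the larger cluster at 24 h, 0.333 in the smaller and 0.0312 or 0.0625 with the block. With p bounded so, a lost call by itself says nothing about stability. In the larger cluster at 72 h the groups lay apart (KD up to 3.55, NC from 3.95, exact permutation p = 0.0571). In the smaller cluster at 72 h they overlapped (KD up to 3.86, NC from 3.85, exact permutation p = 0.667). The ratio also lost its call at 72 h without NC 72 h replicate 6 (-0.52) and ran from -0.55 to -0.42 at 72 h with a replicate left out. Over time in NC it was 0.09 in the smaller cluster and -0.17 to 0.02 with a replicate left out, and the Mfn2 to Mfn1 ratio at 72 h was -0.39 to 0.03.

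Changes of sign were of values that had not passed a test, except Bcl2l1. Without scaling they were Bnip3l 0.0 and Mfn2 0.04 at 24 h, Pink1 0.13 and Dnm1l 0.18 at 72 h, and Dnm1l 0.07 and Bnip3 0.09 for the change of effect. In the larger cluster it was Mfn2 -0.06 at 72 h. In the smaller cluster they were Pink1 -0.18, Mfn2 0.07 and Bnip3l 0.12 at 24 h, Fis1 -0.05, Bcl2l1 -0.16, Opa1 0.02, Dnm1l 0.03 and Pink1 0.33 at 72 h, Mff 0.07, Mfn2 0.07 and Opa1 0.43 over time, and Fis1 -0.13, Mff -0.13, Bnip3 0.06 and Pink1 0.51 for the change of effect. Over time in NC, Mfn2 was 0.0 with libraries kept separate, and Opa1 was 0.08 with the block and 0.02 without NC 72 h replicate 6. At 24 h Opa1 was -0.01 on recovered reads. Without KD 24 h replicate 6, Opa1 was -0.12 and Dnm1l -0.06. With a replicate left out, the ranges that crossed 0 were Bnip3l -0.18 to 0.03, Mfn2 -0.13 to 0.07, Opa1 -0.16 to 0.21, Dnm1l -0.04 to 0.12 and Fis1 -0.06 to 0.16 at 24 h, Pink1 -0.2 to 0.05 and Dnm1l -0.13 to 0.0 at 72 h, Mfn2 -0.07 to 0.04 and Opa1 -0.18 to 0.07 over time, and Bnip3 -0.32 to 0.02 for the change of effect.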
